A study of Mus musculus with 17 samples.

Results

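Orthotopic tumours grown from the mouse ovarian cancer line ID8 were compared with healthy mouse ovary by total RNA sequencing. The comparison used 4 of the 17 libraries of the series: 3 tumours, labelled as primary tumour tissue on the ovary, and 1 wild-type C57BL6 ovary from an untreated animal. They were taken by the column names of the count table. For the tumours, ID8 cells were injected into the bursa, the sac around the mouse ovary, on the right side. The labels named no gene edit and no other agent for either group. They gave neither the ages of the animals, the host strain of the tumours nor the time from injection to harvest. They also did not say whether each tumour came from a different animal, so p-values measure only the spread between the libraries that were fitted. Each tumour library holds ID8 cells together with the host cells in and around them. In such bulk RNA, fewer cells of a type and less RNA per cell cannot be told apart.

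The adult ovary is built of follicles, in which granulosa cells surround an oocyte, and of theca and luteal cells that make steroid hormones. Around these lie stroma, vessels and a thin surface layer of mesothelial type. Granulosa cells convert androgens to oestrogens with aromatase, and theca and luteal cells begin steroid synthesis by cleaving cholesterol in the mitochondrion. ID8 was derived from the surface layer, so the line and the organ it grew in share an origin but not most of their cell types.

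Total counts were between 27342134 and 38902048 in the tumours and 36028719 in the ovary. Mitochondrially encoded genes took 6.37% to 6.99% of the counts in the tumours and 7.42% in the ovary. The correlation of log2(CPM + 1) across genes, where CPM is the read count of a gene scaled to library size, was 0.967 to 0.981 between tumours and 0.900 to 0.909 between a tumour and the ovary. Genes are not independent replicates, so these coefficients only describe the libraries. The ovary library held most of the listed oocyte and steroidogenic markers of the organ. Exceptions were Insl3 at 0.397 CPM and Sohlh1 at 0.149 CPM, and Figla and Dppa3 were not tested. Summed over the list, oocyte genes reached 149 CPM in the ovary and 2.34 to 4.05 CPM in the tumours, and steroidogenic genes reached 4740 CPM against 586 to 659 CPM.

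The ovary was a single library, so its own spread could not be measured. The edgeR quasi-likelihood test fitted all 17 libraries, took the spread from the replicated groups and assumed that this library varies like the other groups. Of 22671 genes tested, 2 were higher in the tumours (0.00882%) and 134 were lower (0.591%) at an adjusted p under 0.05. A second reading needed no assumed spread: a gene counted as apart when its level, CPM + 0.5, differed at least 4-fold in the same direction in each of the 3 tumours. By that reading 221 genes were higher (0.975%) and 1098 were lower (4.84%). They included both genes called higher and 129 of the 134 called lower. The ovary value lay below all 3 tumours for 27.4% of the genes tested and above all 3 for 39.3%. These shares are the background for the gene lists. The median log2 fold change of all genes tested was -0.07. Fewer genes were called when any 1 tumour was left out. Without tumour 1, 2 or 3 the test called 4, 2 and 16 genes lower and 1 gene higher each time. The loss of a replicate and the weight of a given tumour were not told apart in these fits. Lad1, Cldn7 and Haao were the 3 genes called in all of these fits, and 118 of the called genes were called in none of them. Fst kept its call in 2 of these fits, lost without tumour 2 (adjusted p = 0.059), and Rab25, Ovgp1 and Tjp3 in 1. The calls of the other genes named here were lost without each of the tumours, though every tumour lay on the same side of the ovary.

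**Figure D1:**
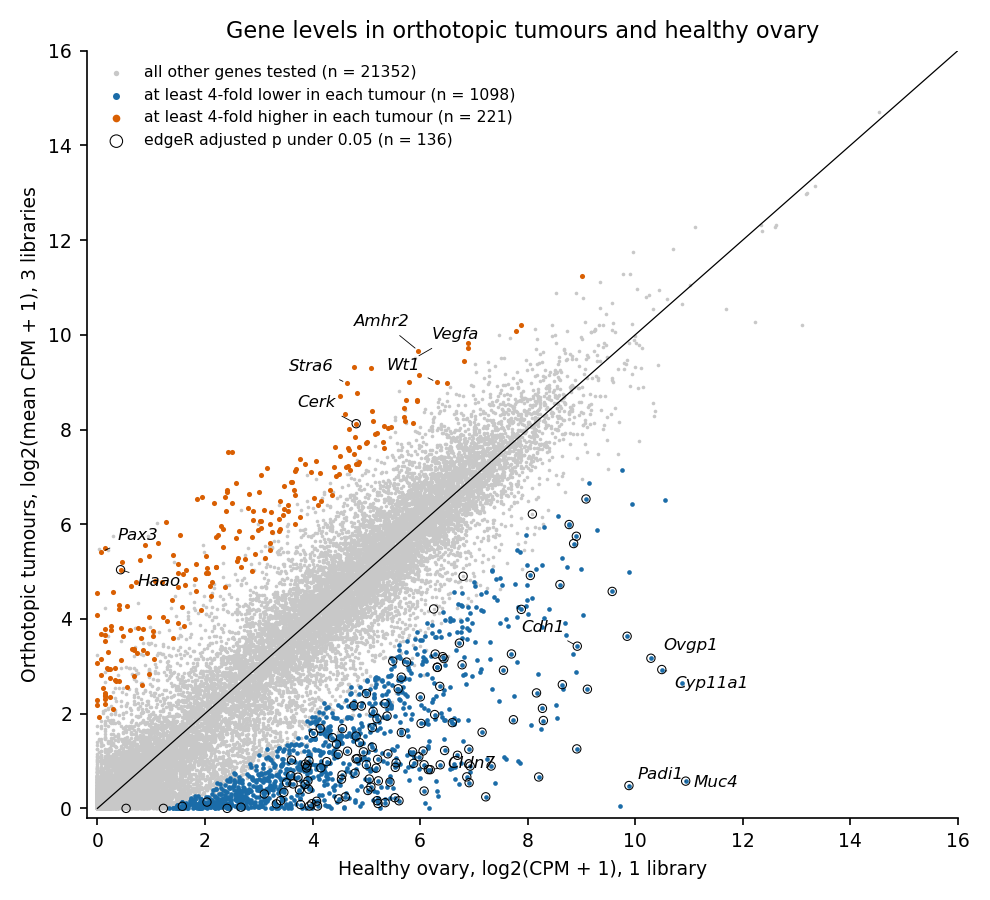
Each point is a gene, with its level in the healthy ovary library on the horizontal axis and the mean of the 3 orthotopic tumours on the vertical axis, both as log2 CPM with 1 added. The 1098 genes at least 4-fold lower in each tumour (blue) outnumber the 221 that were higher (orange), and black circles mark genes past the edgeR threshold.

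Among genes higher in the tumours, Haao and Cerk passed the test. Haao, an enzyme late in the kynurenine pathway of tryptophan breakdown, had 40.3, 33.6 and 21.8 CPM in tumours 1 to 3. It had 0.348 CPM in the ovary and 0.212 CPM in the cultured line. The tumour mean was 91.7-fold above the ovary, with an exact 95% interval of 54.7 to 168 from the 14 ovary counts. Such intervals cover counting error only. Cerk, which phosphorylates ceramide, had 280, 360 and 193 CPM in the tumours against 27.1 CPM in the ovary, and 88.8 CPM in the cultured line. Both genes stood above the ovary in every tumour, but leaving out any 1 tumour ended the call for Cerk, with adjusted p from 0.0543 to 0.124.

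The genes farthest above the ovary in their least different tumour were Mybphl, Pax3, Haao, Cst12, Tesc, Etv4, Ctnna2, Dlg2, Stra6, Sox8, Gpr37 and Krt79. Of these, Haao alone passed the test. Pax3, a transcription factor of the neural crest and muscle precursors, had 49.4, 40.9 and 34.6 CPM in the tumours. The ovary held 2 Pax3 counts, which gives a ratio of 838 with an exact 95% interval of 232 to 6918. Its log2 fold change was 9.59 ± 2.87 (SE; edgeR adjusted p = 0.201). Etv4, an ETS family transcription factor, had 82.9, 46.5 and 65.0 CPM against 1.42 CPM in the ovary. For Pax3 and Etv4 the cultured line stood above every tumour, at 89.0 and 117 CPM. Others on this list were low in the line: Ctnna2, a neuronal catenin, had 144, 287 and 123 CPM in the tumours, 4.67 CPM in the ovary and 0.106 CPM in the line.

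Over all 221 genes that were 4-fold higher, the line was also at least 4-fold above the ovary for 65 (29.4%), against 2.86% of all genes tested. A further group of 61 (27.6%) lay under 0.5 CPM in the line, against 36.1% of all genes. Of the 1098 genes that were lower, 801 (73%) lay under 0.5 CPM in the line, against the same 36.1%. Both folds divide by the same ovary value, so a low ovary value raises both. Part of the excess over all genes can thus follow from how the 221 genes were chosen. The shares under 0.5 CPM are also not like for like. The 221 genes had to be expressed in every tumour and the 1098 in the ovary, unlike all genes tested. The line was a single culture, so these shares have no replicate check.

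The genes farthest below the ovary in their least different tumour were Sprr2f, Muc4, Padi1, Col6a4, Serpina1e, Hsd3b1, Unc5cl, Cyp19a1, Cyp11a1, Muc20, Adgrg7 and Lad1. Muc4, a membrane-bound mucin, had 0.337, 0.133 and 1.0 CPM in the tumours against 1964 CPM in the ovary (edgeR adjusted p = 0.0241). Padi1, which converts arginine in proteins to citrulline, had 0.597, 0.0665 and 0.526 CPM against 944 CPM (adjusted p = 0.0421). Both were at 0 in the cultured line. Cyp19a1, which encodes aromatase, had no read in any tumour and 2856 counts in the ovary and did not pass (adjusted p = 0.0642). With 3 counts over the tumours together as the floor, it was at least 2521-fold lower. Lad1, an anchoring filament protein of epithelial basement membranes, had 0.779, 0.665 and 1.13 CPM in the tumours against 159 CPM in the ovary. Its log2 fold change was -7.52 ± 0.70 (SE; edgeR adjusted p = 0.00317), and the cultured line stood above every tumour at 11.9 CPM. Col6a4, a collagen VI chain, had 2.31, 1.06 and 0.789 CPM against 482 CPM, and Adgrg7, an adhesion receptor, had 0.727, 0.432 and 0.210 CPM against 120 CPM. The edgeR test called both lower, with adjusted p = 0.0301 and adjusted p = 0.0162. Rnf186, Tmem54, Oit1 and Tmprss4 were also called lower and lay under 0.21 CPM in every tumour. Sprr2f, a cornified envelope protein made by uterine epithelium under oestrogen, had 843 CPM in the ovary and 4 counts in the tumours together. It did not pass (adjusted p = 0.0584), and reads of the closely similar Sprr2 genes may have been split between copies. The same caution applies to Serpina1e and Hsd3b1.

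**Figure D2:**
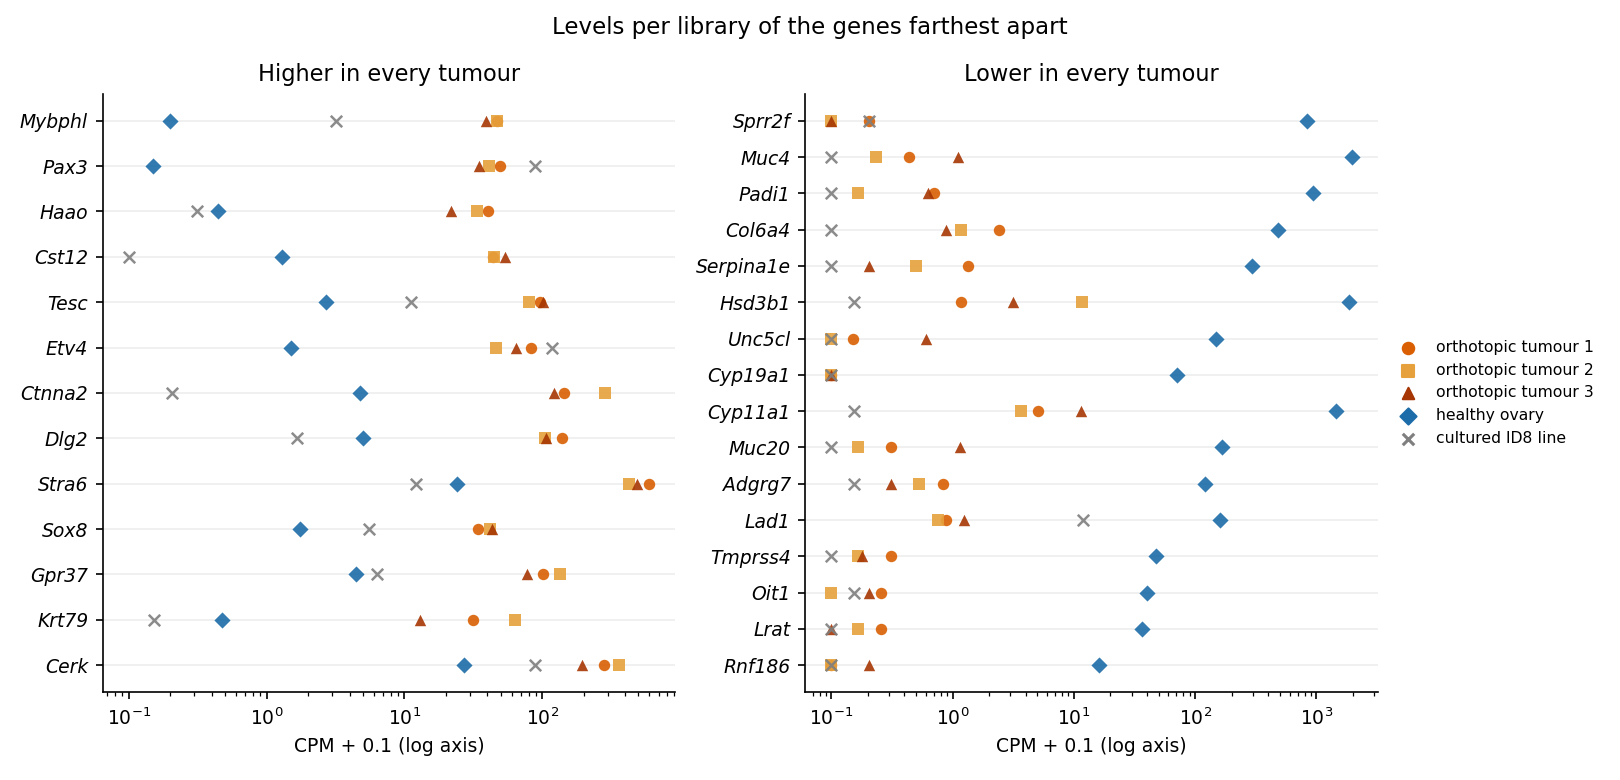
Levels per library (CPM with 0.1 added, log axis) of the named genes farthest above the ovary (left) and below it (right), ordered by the fold in the least different tumour. Filled symbols are single libraries: circles, squares and triangles for tumours 1 to 3 and diamonds for ovary, with the cultured line as a cross. Haao runs from 21.8 to 40.3 CPM in the tumours against 0.348 CPM in the ovary.

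Oocyte genes were near 0 in the tumours. Of 12 tested, 9 were 4-fold lower in each tumour and 1, Gdf9, was called lower. The list's median log2 fold change was -5.25. Gdf9, a growth factor secreted by the oocyte, had 0.649, 0.897 and 0.474 CPM in the tumours and 26.7 CPM in the ovary. The log2 fold change was -5.30 ± 0.69 (edgeR adjusted p = 0.00954). Bmp15, the partner of Gdf9, had 1.97, 1.99 and 0.895 CPM against 22.2 CPM. Zp2, a coat protein of the egg, was at 0 in tumours 2 and 3, had 0.104 CPM in tumour 1 and 28.6 CPM in the ovary. Every tumour lay below the ovary for all but 1 of the tested oocyte genes, the exception being Sohlh1, which was under 0.5 CPM in all 4 libraries.

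Granulosa genes split. Of 12 tested, 6 were 4-fold lower, 1 was 4-fold higher and 2 were called lower, with a median log2 fold change of -3.68. The called genes were Inhba, which encodes the activin subunit, and Fst, which encodes follistatin, an inhibitor of activin. Inhba had 5.22, 2.99 and 5.05 CPM in the tumours against 286 CPM in the ovary, and Fst had 3.43, 2.63 and 1.47 CPM against 96.0 CPM. Fshr, the receptor for follicle-stimulating hormone, had 0.0519, 0.0332 and 0.789 CPM against 31.9 CPM. Foxl2, the transcription factor that maintains granulosa identity, overlapped the ovary instead, with 26.6, 38.4 and 11.9 CPM against 23.1 CPM. Inha, the inhibin alpha subunit, kept 308, 404 and 220 CPM against 1301 CPM.

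Amhr2, the receptor for anti-Müllerian hormone, was the granulosa gene that stood higher. It had 1024, 853 and 555 CPM in the tumours, 61.6 CPM in the ovary and 20.4 CPM in the cultured line. All tumours lay at least 8.94-fold above the ovary, but the log2 fold change of 3.72 ± 1.85 did not pass (edgeR adjusted p = 0.488). Its ligand gene, Amh, stood lower, with 17.9, 13.6 and 15.3 CPM against 43.9 CPM. Among the other groups Amhr2 was also high in the ascites taps, with 93.1 to 892 CPM over both taps. It ranged from 31.8 to 403 CPM in the subcutaneous tumours and from 6.3 to 164 CPM in the intestinal metastases, and had 0.103 CPM in healthy intestine.

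The promoter of Amhr2 is shown because it was the 1 promoter on the granulosa and steroidogenic lists that held AAGGTCA, the letters bound by the NR5A receptors Nr5a1 and Nr5a2. The bases lie in RefSeq's 250 before the start (build GRCm38.p6), chr15:102445117-102445236, plus strand, with these letters in capitals beginning 231 bases before the start.
Amhr2: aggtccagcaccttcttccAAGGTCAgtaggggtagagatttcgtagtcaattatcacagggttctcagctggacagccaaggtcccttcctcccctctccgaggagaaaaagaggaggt
Searched on both strands, AAGGTCA was in 1 of 24 listed promoters of 18 genes (4.17%) and in 1340 of 32851 promoters in all (4.08%). A match describes letters, not binding.

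Steroid synthesis genes also split, with most enzymes far below the ovary and Star and Nr5a1 above it. Of 13 tested, 7 were 4-fold lower and 2, Cyp11a1 and Fdx1, were called lower (median log2 fold change -3.28). Cyp11a1 cleaves the cholesterol side chain in the first step. It had 4.96, 3.59 and 11.3 CPM in the tumours and 1443 CPM in the ovary, with a log2 fold change of -7.76 ± 1.41 (edgeR adjusted p = 0.0346). Fdx1, the ferredoxin that passes electrons to that enzyme, had 8.44, 6.38 and 9.81 CPM against 84.7 CPM (adjusted p = 0.0259). Hsd3b1, which carries out the next step, had 1.06, 11.6 and 3.05 CPM against 1863 CPM (adjusted p = 0.0545). The receptors of luteal cells were low as well: Lhcgr had 0.0519, 10.4 and 0.158 CPM against 367 CPM, and Prlr had 3.37, 8.88 and 1.97 CPM against 403 CPM. Tumour 2 held the most Lhcgr, Prlr, Hsd3b1 and Cyp17a1.

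Star, which brings cholesterol into the mitochondrion, lay above the ovary in every tumour. Its values were 213, 187 and 388 CPM against 79.7 CPM, and it had 12.9 CPM in the cultured line. Nr5a1, the receptor that directs steroidogenic genes, had 139, 135 and 79.7 CPM against 70.5 CPM and 44.2 CPM in the line. Scarb1, the lipoprotein receptor that supplies cholesterol, had 186, 244 and 95.6 CPM against 237 CPM. None of these 3 passed the test, with adjusted p from 0.737 to 0.910.

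**Figure D3:**
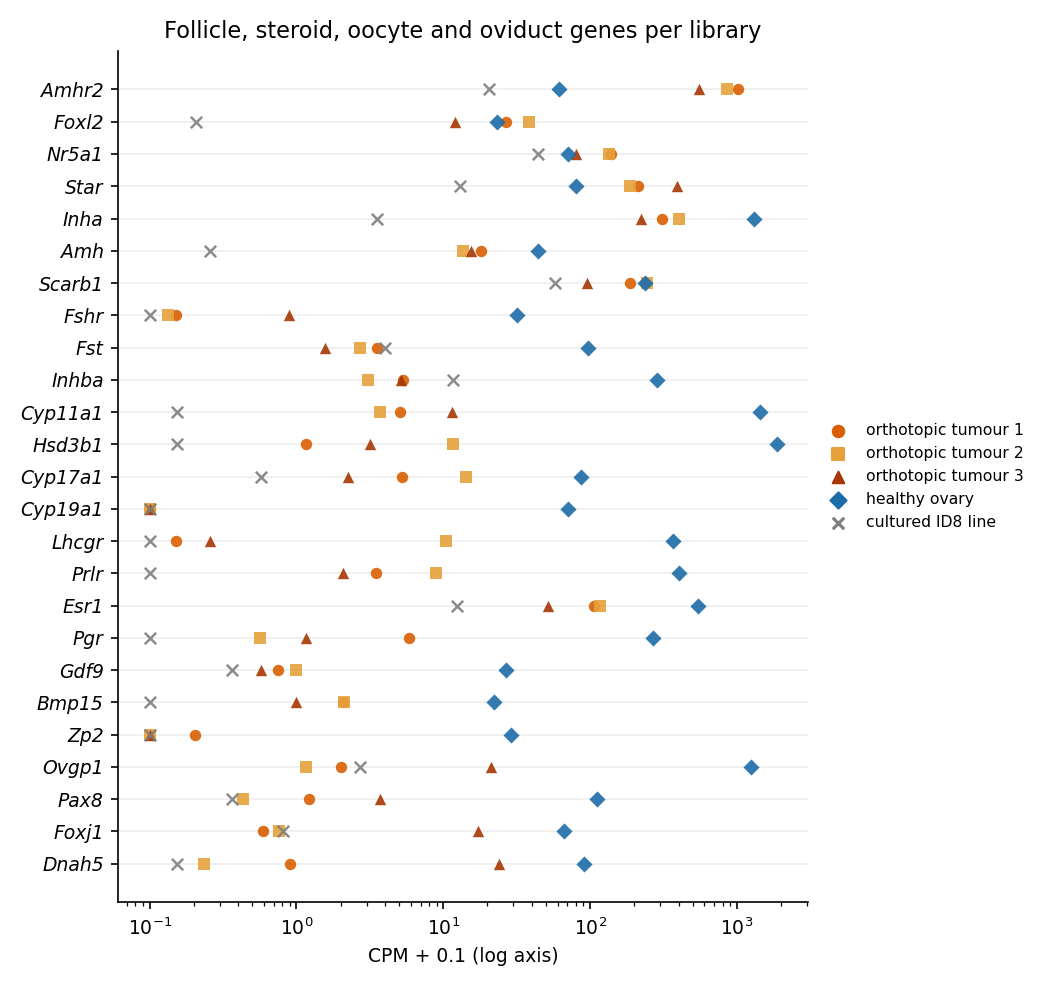
Levels per library (CPM with 0.1 added, log axis) of granulosa, steroidogenic, hormone receptor, oocyte and oviduct genes, 1 symbol per library. Amhr2 and Star lie to the right of the ovary diamond in every tumour, while Cyp11a1, at 3.59 to 11.3 CPM in the tumours, lies far to the left of 1443 CPM in the ovary.

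Of 6 steroid receptors and receptor targets, 2 were 4-fold lower and 1 was called. Esr1, oestrogen receptor alpha, had 106, 117 and 51.8 CPM against 542 CPM and was called lower (log2 fold change -2.57 ± 0.47, edgeR adjusted p = 0.0361). Pgr, the progesterone receptor, had 5.71, 0.465 and 1.05 CPM against 267 CPM. It did not pass (adjusted p = 0.154).

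The ovary library also carried genes of the neighbouring reproductive tract, and most of these were lower in the tumours. Of 7 oviduct secretory genes, 6 were 4-fold lower and Ovgp1 was called lower (median log2 fold change -4.41). Ovgp1, oviductin, had 1.90, 1.06 and 21.1 CPM in the tumours and 1254 CPM in the ovary, and Pax8, a Müllerian transcription factor, had 1.12, 0.332 and 3.63 CPM against 111 CPM. Emx2 was the exception, with 163, 161 and 51.3 CPM against 50.8 CPM. Genes of motile cilia, which cover oviduct epithelium, were 4-fold lower in 3 of 14, with none called. Tumour 3 stood apart on this list, whose median of -3.41 was -6.45 without it. Foxj1, the regulator of motile cilia, had 0.493 and 0.665 CPM in tumours 1 and 2, 17.1 CPM in tumour 3 and 66.5 CPM in the ovary. Dnah5, a ciliary dynein, had 0.805, 0.133, 23.9 and 91.3 CPM in the same order. Summed over the list, ciliary genes reached 30.2, 23.1 and 122 CPM in the tumours and 389 CPM in the ovary. Of 6 uterine genes tested, 4 lay below the ovary in every tumour and none lay above it in every tumour. The list's median log2 fold change was -2.27, and none was called. Only Ltf, lactotransferrin of oestrogen-driven uterine epithelium, was 4-fold lower, with 6.20, 1.40 and 18.1 CPM against 457 CPM. Foxa2 of the same list lay above the ovary in tumours 1 and 3 and below it in tumour 2. How far tissue beside the ovary in that library set the genes lower in tumours was not tested.

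Epithelial junction genes formed the list with the most calls. Of 21 tested, 13 were 4-fold lower and 6 were called lower (Cdh1, Cldn7, Rab25, St14, Tjp3 and Pkp3), with a median log2 fold change of -3.91. Cldn7, a tight junction claudin, had 0.649, 0.532 and 1.1 CPM in the tumours, 72.0 CPM in the ovary and 0.848 CPM in the cultured line. The tumours were thus at the level of the line. Cdh1, E-cadherin, was different in that respect, with 9.29, 5.52 and 14.4 CPM in the tumours, 485 CPM in the ovary and 94.0 CPM in the line. Krt18, a keratin of simple epithelia, overlapped the ovary, with 96.6, 46.0 and 106 CPM against 98.4 CPM. Spint2, an inhibitor of the St14 protease, had 78.2, 92.0 and 79.5 CPM against 81.4 CPM and was at 0 in the line.

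Mesothelial and ovarian surface genes showed no common direction. Of 11 tested, Wt1 was 4-fold higher, Aldh1a2 was 4-fold lower, none was called and the median log2 fold change was 0.22. Wt1, a transcription factor of the mesothelium, had 625, 345 and 561 CPM against 78.4 CPM in the ovary and 577 CPM in the line (adjusted p = 0.549). Aldh1a2, which makes retinoic acid, had 31.2, 10.1 and 9.76 CPM against 143 CPM. The tumours differed among themselves, with an SD of the list level of 1.09, second to 3.23 for skeletal muscle. Upk3b, a uroplakin of mesothelium, had 717, 109 and 276 CPM against 164 CPM, so that tumour 2 lay below the ovary and the others above. The list level, the mean log2(CPM + 1) of its genes, was 6.43, 4.38 and 6.02 in the tumours, 5.80 in the ovary and 5.81 in the line. Mesenchymal genes had a median of -0.01, with Vim, the intermediate filament vimentin, at 2203, 1046 and 2459 CPM against 474 CPM.

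Matrix genes of tumour stroma lay more often above the ovary than below it: of 20 tested, the ovary was below all 3 tumours for 11 and above them for 3, and none was called. The median log2 fold change was 0.86. Col8a1, a short-chain collagen of vessel walls, had 89.3, 115 and 54.2 CPM against 3.50 CPM in the ovary and 0.053 CPM in the line. Col12a1, which sits on the surface of collagen fibrils, had 446, 654 and 211 CPM against 27.4 CPM. Both were more than 4-fold higher in each tumour, and neither passed (adjusted p = 0.270 and adjusted p = 0.306). The major fibrillar collagen Col1a1 overlapped the ovary with 1300, 1562 and 712 CPM against 986 CPM. Col11a1 went the other way, with 3.30, 1.63 and 1.97 CPM against 18.6 CPM. Fibroblast genes had a median of -1.05, basement membrane genes 0.45, and proteases and inhibitors of the matrix 0.66. None of these genes was called.

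Of 17 hypoxia and glycolysis genes, 10 lay above the ovary in every tumour and none lay below it in every tumour, with a median log2 fold change of 1.09 and no call. Vegfa, the growth factor of vessels, had 880, 214 and 1097 CPM against 59.2 CPM in the ovary and 132 CPM in the line. The log2 fold change was 3.62 ± 2.01 (edgeR adjusted p = 0.540). Ndrg1, a stress gene induced at low oxygen, had 481, 97.2 and 769 CPM against 47.8 CPM. Slc2a1, the main glucose transporter of most cells, had 140, 43.4 and 180 CPM against 49.0 CPM. Tumour 2 was the lowest tumour for all 3 genes and lay below the ovary for Slc2a1. The list level was 7.03 and 7.12 in tumours 1 and 3, 5.75 in tumour 2 and 5.62 in the ovary.

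Endothelial genes had a median of -0.69 over 12 genes, and none was called. Kdr, the main signalling receptor for the Vegfa protein, had 318, 254 and 175 CPM against 73.4 CPM. Pecam1, an adhesion protein of endothelium, had 51.8, 58.9 and 40.4 CPM against 77.7 CPM, and Cdh5, VE-cadherin, had 45.9, 73.8 and 28.7 CPM against 85.8 CPM. Kdr was thus above the ovary in every tumour while both junction genes were below it. Of 6 lymphatic endothelial genes, 4 lay below the ovary in every tumour and 1 above it, with a median of -1.79 and none called. Lyve1 was the 1 that was 4-fold lower, with 8.51, 6.22 and 9.55 CPM against 42.9 CPM. Summed over the list, the tumours stood higher, at 335, 258 and 244 CPM against 199 CPM. Pericyte genes had a median of 0.17.

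**Figure D4:**
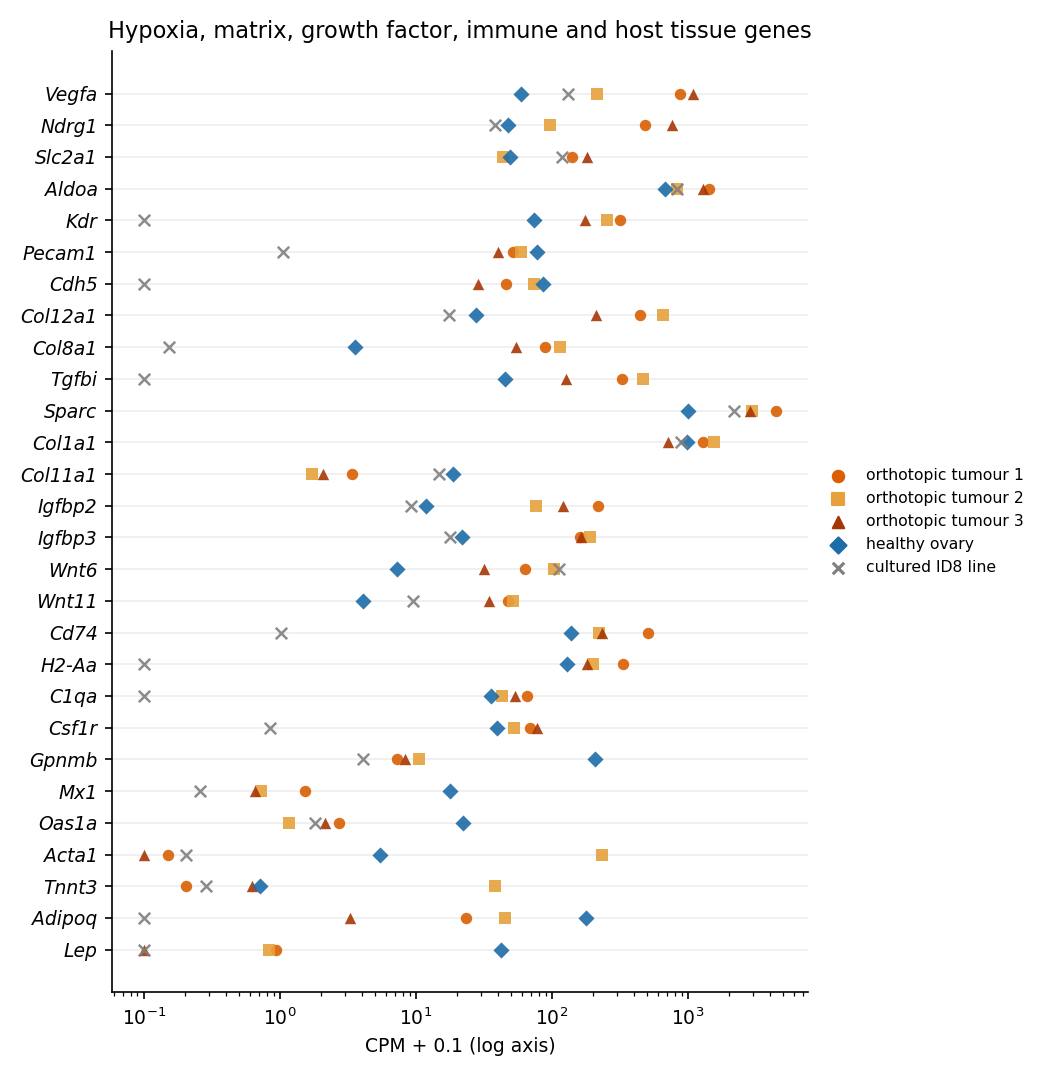
Levels per library (CPM with 0.1 added, log axis) of hypoxia, vessel, matrix, growth factor, immune, muscle and fat genes, 1 symbol per library. Vegfa and Ndrg1 are lowest in tumour 2 (square) among the tumours, and Acta1 and Tnnt3 are high in tumour 2 alone.

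Of 14 Wnt ligands and modulators, 3 were 4-fold higher (Wnt6, Wnt11 and Wif1), 1 was lower (Sfrp4) and none was called, with a median log2 fold change of 1.32. Wnt6 had 63.4, 104 and 31.9 CPM against 7.15 CPM, and 113 CPM in the line. Wnt11 had 47.9, 51.7 and 34.3 CPM against 4.02 CPM, and 9.4 CPM in the line. Both are Wnt ligands, whereas Wif1, which binds and blocks them, had 4 counts in the ovary and 5.71, 2.36 and 3.82 CPM in the tumours. Sfrp4, a secreted antagonist, had 8.96, 13.8 and 10.2 CPM against 116 CPM. Of 11 genes listed for the insulin-like growth factor system, 7 lay above the ovary in every tumour and 2 below it. Their median was 0.67 and none was called. The ligand Igf1 stood below the ovary, with 132, 134 and 40.8 CPM against 412 CPM. A pair of its binding proteins stood 4-fold above: Igfbp2 had 217, 76.2 and 121 CPM against 11.7 CPM, and Igfbp3 had 160, 192 and 163 CPM against 21.8 CPM. Adjusted p was 0.552 for Igfbp2 and 0.589 for Igfbp3.

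Retinoid handling genes lay on both sides of the ovary. Of 13 tested, 5 were 4-fold lower, 1 was 4-fold higher and Lrat was called lower. Stra6, the cell surface receptor that takes up retinol, had 600, 426 and 484 CPM against 23.9 CPM in the ovary and 12.1 CPM in the line. It was at least 17.5-fold higher in each tumour, with a log2 fold change of 4.40 ± 1.90 (edgeR adjusted p = 0.415). Lrat, which stores the retinol as esters, had 0.156, 0.0665 and 0 CPM against 36.2 CPM (adjusted p = 0.0437). Crabp2, a carrier of retinoic acid, had 0.130, 0.266 and 0.421 CPM against 35.9 CPM (adjusted p = 0.0919). In the kynurenine pathway Haao was the only one of 11 genes called. Ido1, the entry enzyme in many tissues, had 0.156, 0.798 and 0.105 CPM against 0.273 CPM, and Kyat1, an aminotransferase, had 5.94, 5.98 and 5.05 CPM against 22.5 CPM. Haao itself was also above the ovary in the ascites taps, at 5.29 to 11.2 CPM, and in both subcutaneous tumours, at 17.6 and 25.6 CPM.

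MHC class II molecules present antigen to CD4 T cells and class I molecules to CD8 T cells. All 7 MHC class II genes were above the ovary in every tumour, with log2 fold changes from 0.52 to 1.48 and none called. H2-Aa, a class II chain, had 333, 200 and 181 CPM against 130 CPM, and Cd74, the invariant chain, had 506, 223 and 232 CPM against 138 CPM. Of 9 class I genes 7 were below the ovary in every tumour. B2m, the light chain of class I, had 888, 388 and 710 CPM against 1374 CPM. The other 2, Tap2 and Tapbp of the peptide loading complex, were above it in every tumour, with 333, 235 and 301 CPM against 181 CPM for Tapbp. No gene of either list was called, and the difference between the lists was not tested.

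Of 16 macrophage genes, 6 lay above the ovary in every tumour and 4 below it in every tumour, with a median log2 fold change of 0.35. Csf1r, the receptor for macrophage growth factor, had 69.0, 52.9 and 77.5 CPM against 39.1 CPM, and C1qa, a complement C1q chain, had 65.4, 43.1 and 53.5 CPM against 35.6 CPM. Gpnmb, a glycoprotein of lipid-laden macrophages that other cell types also make, was the 1 macrophage gene called, and it was lower. It had 7.16, 10.4 and 8.18 CPM against 207 CPM (log2 fold change -4.59 ± 0.76, edgeR adjusted p = 0.0273). T cell genes were low in all 4 libraries: 13 genes summed to 20.6, 11.7 and 11.3 CPM in the tumours and 23.1 CPM in the ovary. Of 8 checkpoint genes, 4 lay above the ovary in every tumour and 2 below it, with a median of 0.58 and none called. The checkpoint receptor Pdcd1 had 10.2, 46.7 and 7.34 CPM against 1.71 CPM in the ovary, highest in tumour 2. Cd3e, a chain of the T cell receptor complex, had 1.27, 0.665 and 0.316 CPM against 2.63 CPM. Medians were -1.58 for B and plasma cells, -1.98 for cytotoxic cells, -0.73 for neutrophils, -1.16 for dendritic cells and -0.11 for complement. Of 17 chemokines, 1 lay above the ovary in every tumour and 4 below it, with a median of 0.24 and none called. The 1 above was Cx3cl1, which attracts monocytes, with 211, 169 and 203 CPM against 39.0 CPM. Ccl11, which attracts eosinophils, had 0.727, 1.3 and 0.210 CPM against 34.8 CPM (adjusted p = 0.058).

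Interferon response genes lay more often below the ovary than above it. Of 18 tested, 11 lay below the ovary in every tumour and 1 above it in every tumour. Of the 18, 3 were 4-fold lower (Mx1, Oas1a and Ifi44) and none was called, with a median log2 fold change of -1.14. Mx1, an antiviral GTPase, had 1.43, 0.632 and 0.553 CPM against 17.8 CPM. Oas1a, a sensor of double-stranded RNA with several close copies, had 2.65, 1.06 and 2.05 CPM against 22.2 CPM. Ifit2 was the 1 gene above the ovary in every tumour, with 54.3, 21.2 and 28.1 CPM against 10.0 CPM. Its neighbour Ifit1 had 31.0, 6.65 and 9.39 CPM against 36.0 CPM. Tumour 1 was the highest tumour for each of these 4 genes. The promoters of Oas1a and Ifit1 are shown because the genes differ in their distance from the ovary while both hold the interferon motif (GAAA, any 2 bases and GAAA), in capitals, on either strand. They are RefSeq windows of build GRCm38.p6, chr5:120907526-120907605 (minus strand) for Oas1a, with matches beginning 20 and 14 bases before the start, and chr19:34640759-34640838 (plus strand) for Ifit1, with matches beginning 104 and 85 bases before it.
Oas1a: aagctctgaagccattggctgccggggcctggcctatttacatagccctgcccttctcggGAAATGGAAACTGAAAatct
Ifit1: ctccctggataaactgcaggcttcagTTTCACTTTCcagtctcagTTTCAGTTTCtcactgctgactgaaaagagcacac
The 2 matches overlap in Oas1a. The motif was in 8 of 16 listed promoters of 14 interferon genes (50%) and in 978 of 32851 promoters in all (2.98%). No difference between the listed genes with and without the motif was tested.

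Cholesterol synthesis and uptake genes lay below the ovary in every tumour for 13 of 15, with a median log2 fold change of -1.35. Fdps, which makes farnesyl diphosphate, had 16.3, 11.5 and 24.8 CPM against 75.3 CPM and was called lower (log2 fold change -2.10 ± 0.38, edgeR adjusted p = 0.0346). Proliferation genes had a median of -0.01 over 19, with no gene called or 4-fold apart. Mki67, a protein of dividing cells, had 397, 278 and 322 CPM against 286 CPM in the ovary and 1194 CPM in the cultured line. Immediate early genes lay above the ovary in every tumour for 7 of 12: Egr1, a transcription factor induced by growth signals, had 236, 268 and 236 CPM against 60.5 CPM, and Fosb had 26.7, 7.41 and 19.1 CPM against 2.48 CPM. Genes encoded by mitochondrial DNA had a median of -0.21.

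Markers of fat and muscle also differed between these libraries. Adipocyte genes lay below the ovary in every tumour for 11 of 12, summing to 305, 624 and 88.5 CPM in the tumours and 1720 CPM in the ovary. Adipoq, the hormone adiponectin, had 23.3, 45.3 and 3.18 CPM against 177 CPM. Smooth muscle genes were 4-fold lower for 6 of 10, and Acta2, smooth muscle actin, was called lower with 74.5, 23.9 and 43.4 CPM against 462 CPM (log2 fold change -3.29 ± 0.64, edgeR adjusted p = 0.0421). Skeletal muscle genes were high in tumour 2 alone, where 5 genes summed to 453 CPM against 2.26 and 1.05 CPM in tumours 1 and 3. Acta1, skeletal actin, had 0.0519, 233 and 0 CPM in the tumours and 5.37 CPM in the ovary, and Tnnt3, fast troponin T, had 0.104, 38.2 and 0.526 CPM against 0.621 CPM. The skeletal muscle median of 4.37 rests on tumour 2 and was -0.92 without it. Haemoglobin and other erythroid genes had a median of 1.21, with Hbb-bs at 268, 268 and 196 CPM against 85.6 CPM, although reads of the paired globin genes may be split between copies. Pancreatic genes (4 tested, median 3.38, or 1.97 with a gene at 0 in the ovary set at its bound), intestinal epithelial genes (9 tested, median -1.30) and squamous genes (10 tested, median -1.76) were mostly under 5 CPM in the tumours. The part of these other tissues in the 4-fold differences was not tested.

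**Figure D5:**
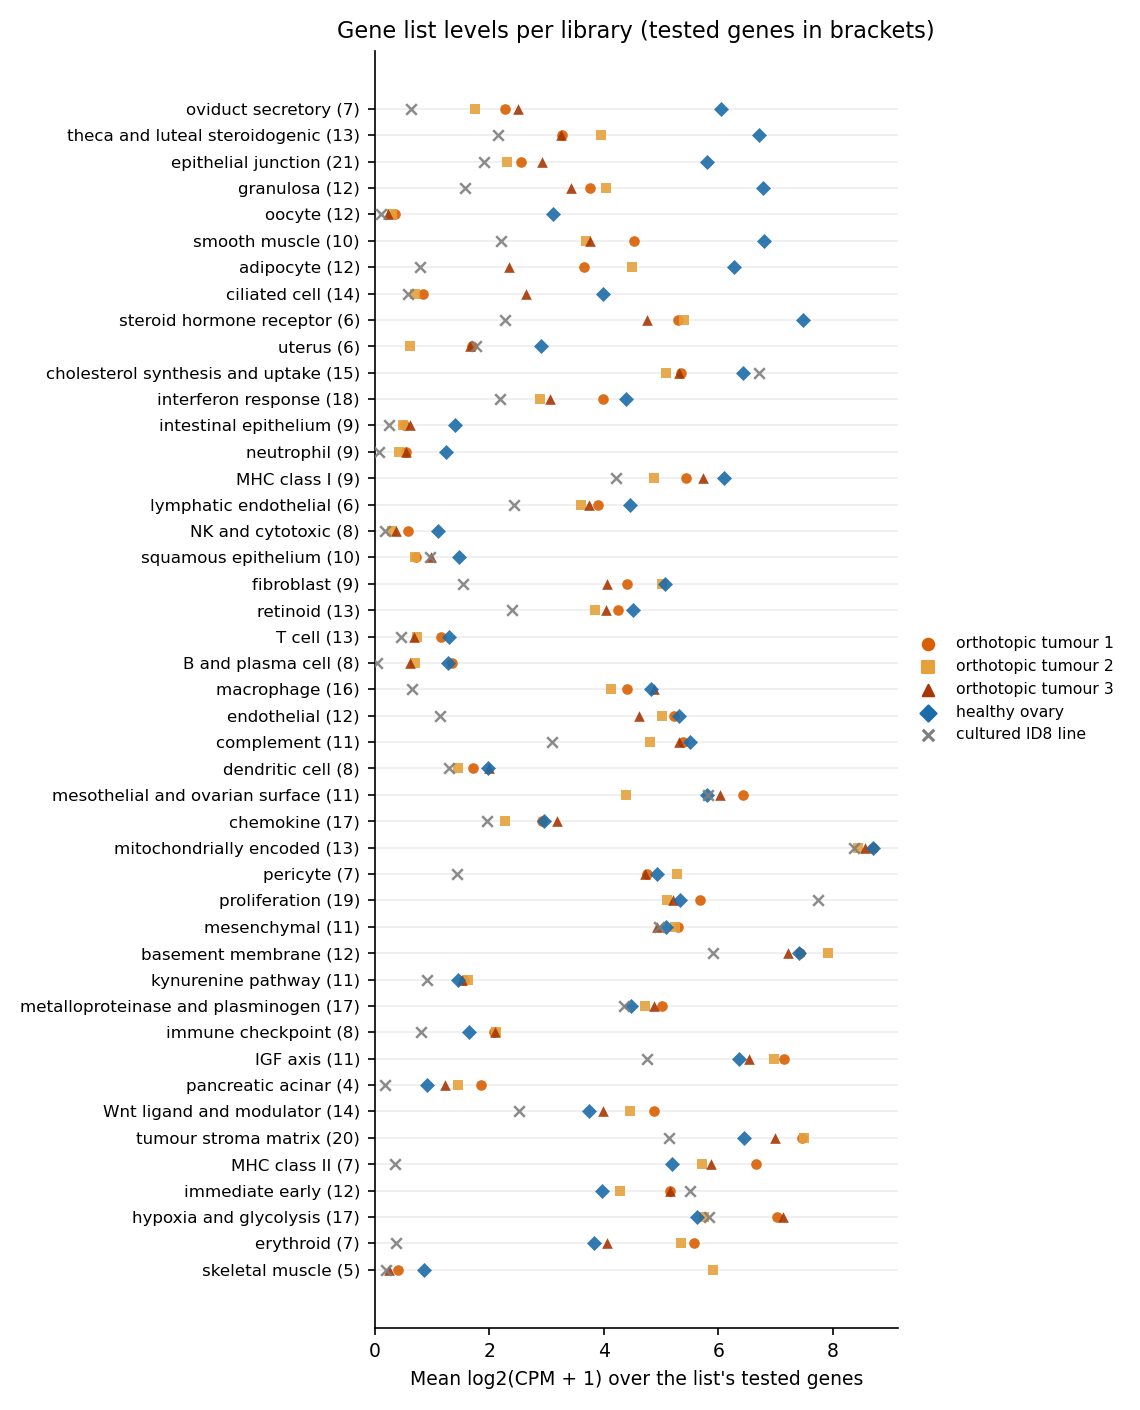
Level of each gene list per library, as the mean log2(CPM + 1) of its tested genes, with lists ordered from most below the ovary to most above it. Ovary diamonds lie to the right of all tumours for the oviduct, steroidogenic, junction, granulosa and oocyte lists, and the skeletal muscle list is high in tumour 2 alone, at 5.91.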

How the data were processed

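The authors deposited whole-number read counts per Ensembl gene for 43629 genes, of which 39055 had a count. Per the labels' protocols, total RNA came from Trizol extraction and went into strand-specific libraries. The submitters' processing notes name HISAT, HISAT2, featureCounts and DESeq2, without versions, and the builds hg19 and mm39. The strand setting of the counting is not given in the sources used here, so reads of overlapping or antisense genes cannot be told apart. The table had 1 column of values that matched no labelled sample and was not used. Identifiers were named from the reference name table, where 42462 matched.

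Genes above 0.5 CPM in at least 2 of 17 libraries were fitted together (8 groups, 9 residual degrees of freedom) with edgeR 4.0.16 in R 4.3.3, using TMM scaling, the robust quasi-likelihood F test and Benjamini-Hochberg adjustment over 22671 genes. A gene above 0.5 CPM in the ovary library alone could not pass this filter, so it is missing from the counts of lower genes. CPM used the TMM-scaled total. The fit was tested on simulated data. Alternatives used limma 3.58.1 and DESeq2 1.42.0. Named genes were all called genes up to 10 per direction, otherwise the 10 with the largest fold change that were 4-fold apart with 10 CPM. The 12 farthest apart per direction with 20 CPM, the called members of 45 gene lists (517 genes, 510 tested) and up to 4 more per list were added, with defining markers given per library. The comparison, its members and the lists were chosen with earlier results of these data known. A count of 0 was bounded by 3 counts, 0.0745 CPM in the ovary and 0.0281 CPM over the tumours together. A called list member is not reported here.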

Additional observations from a re-analysis of the deposited data

How the results depend on the processing

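No paired analysis was possible because the ovary was a single library with no replicate number. The counts of called genes, 2 higher and 134 lower, depended on the processing, and the cause was not tested. Genes called higher numbered 1 with scaling by library size alone, 6 without a filter on low counts, 259 with DESeq2, 29 with limma-voom, 212 with only the 3 tumours and the ovary fitted, and 15 without the subcutaneous tumours. Genes called lower numbered 521 with DESeq2, where 3186 genes had no adjusted p, 760 with limma-voom and 518 with those 4 libraries alone. Of the 134, DESeq2 called 132, limma-voom 134 and the fit of 4 libraries 97. They numbered 120 with relative log expression scaling, 90 with library size, 154 without the filter and 175 without the subcutaneous tumours. Leaving out 1 tumour at a time left 1 gene called higher each time and 2 to 16 called lower. At an unadjusted p under 0.05, 669 genes were higher and 1872 lower. The 221 higher and 1098 lower genes that were 4-fold apart became 332 and 1573 with a pseudocount of 0.1 CPM, 143 and 637 with 2 CPM, 951 and 2581 at 2-fold, and 52 and 476 at 8-fold. Leaving out 1 tumour gave 247 to 327 and 1210 to 1387, since fewer tumours have to pass. Among named genes that were not called, the log2 fold change turned to -0.02 for Foxl2, -0.24 for Ido1, -0.63 for Sohlh1 and -3.56 for Acta1 with limma-voom and to -0.03 for Spint2 with library size. Leaving out 1 tumour gave -0.22 to 0.55 for Foxl2, -0.41 to 0.09 for Krt18, 0.00 to 0.12 for Spint2, -1.0 to 0.83 for Ido1, -0.46 to 1.13 for Sohlh1, -7.43 to 4.51 for Acta1 and -0.92 to 5.00 for Tnnt3, and the value without tumour 2 was the one that was 0 or of the other sign. List medians moved by more than the spread between tumours for 14, 15 and 12 of 45 lists without tumours 1, 2 and 3, with largest shifts of 1.38 (oviduct), 5.29 (skeletal muscle) and 3.04 (ciliated cell). Library size scaling moved 4 and relative log expression scaling 0. Medians changed sign for the mesothelial list without tumour 1 (-0.23), the skeletal muscle (-0.92), complement (0.01) and proliferation (0.15) lists without tumour 2, and the mesenchymal (0.08), chemokine (-0.09) and proliferation (0.12) lists without tumour 3.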
